A study of Mus musculus with 36 samples.

Results

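Serine synthesis and folate one-carbon metabolism were followed through 9 enzyme genes, Phgdh, Psat1, Psph, Shmt1, Shmt2, Mthfd1, Mthfd2, Mthfd1l and Aldh1l2, in RNA of mouse pancreatic fibroblasts. The genes were taken by their symbols from a table of 39017 genes, each symbol matched 1 row, and all 9 were among the 14439 genes that passed the filter on low counts. The 36 libraries came from fibroblasts of the C57BL/6 strain in 9 groups of 4. The fibroblasts in 8 groups had been kept for 48 h with tumor cells carrying GFP and then separated from them by flow sorting, and the tumor cells were the sub-clones E, H, K, M, N, T or V, or KPC1, a name that the labels do not explain. The ninth group was mono-culture, although its growth protocol carries the same co-culture text as the others, and no allele, drug or age is given for the fibroblasts. Nothing in the labels says that the 4 libraries of a group came from separate cultures, so p-values measure the spread between these libraries, which may be technical. Library totals lay between 12532122 and 21985538 counts, and the lowest count of any of the 9 genes in a library was 453, for Psph.

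Cells make serine from the glycolytic intermediate 3-phosphoglycerate by the successive action of PHGDH, PSAT1 and PSPH. Serine hydroxymethyltransferase (SHMT1 in the cytosol, SHMT2 in mitochondria) splits serine into glycine and a one-carbon unit carried by folate, and the folate enzymes of both compartments (MTHFD1 in the cytosol, MTHFD2, MTHFD1L and ALDH1L2 in mitochondria) oxidize that unit, release it as formate or carbon dioxide, or pass it on to purine and thymidylate synthesis. Several of these genes are known targets of the transcription factor ATF4, the effector of the integrated stress response, and activated fibroblasts are known to use serine and glycine to build collagen.

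The 9 genes lie on 7 chromosomes of mm10 and are protein coding. RefSeq promoter windows of the same build (GRCm38.p6) matched 8 of them, and Aldh1l2 was not matched. In the 250 bases before the start, the CCAAT box, searched as CCAAT or its complement ATTGG, was present in 6 of the 8 (Phgdh, Psat1, Psph, Shmt1, Mthfd1 and Mthfd2) and in 33.8% of 32851 windows of the same length. Genes were counted if any of their windows matched, whereas the percentages are of single windows, so the units differ. Psat1 has a pair of windows, of which the one with the upstream start holds 2 boxes and the other holds 0; the upstream one is shown. The letters TGATGNAA, a core of sites bound by ATF4 with C/EBP partners, were found on either strand in 0 of the 8 and in 3.45% of all windows, and the E-box CACGTG in 0 of the 8 and 6.02%. The CCAAT matches overlapped no other motif searched in the 8 windows, where the others had no match, and a match is a description of the letters, not a bound site. The last 120 bases before the start are shown for 5 genes because they hold the CCAAT box in different numbers and their transcripts moved by very different amounts. Capitals mark CCAAT or ATTGG.
Phgdh (chr3:98339970-98340089, minus strand): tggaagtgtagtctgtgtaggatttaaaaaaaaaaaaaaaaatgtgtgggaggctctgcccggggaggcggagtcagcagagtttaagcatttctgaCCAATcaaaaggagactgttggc
Psat1 (chr19:15925060-15925179, minus strand): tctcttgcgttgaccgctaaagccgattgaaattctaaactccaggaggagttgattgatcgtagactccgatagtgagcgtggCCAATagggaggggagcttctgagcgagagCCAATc
Mthfd2 (chr6:83317605-83317724, minus strand): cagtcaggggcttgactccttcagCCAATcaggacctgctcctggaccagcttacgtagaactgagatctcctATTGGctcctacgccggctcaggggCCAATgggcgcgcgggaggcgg
Mthfd1 (chr12:76255112-76255231, plus strand): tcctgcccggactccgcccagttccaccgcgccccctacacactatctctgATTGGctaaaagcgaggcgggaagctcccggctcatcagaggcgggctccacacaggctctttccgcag
Shmt2 (chr10:127522445-127522564, minus strand): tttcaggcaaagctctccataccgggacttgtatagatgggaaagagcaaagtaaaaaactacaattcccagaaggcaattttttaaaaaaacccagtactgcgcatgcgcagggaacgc
The stretches shown for Phgdh, Psat1 and Mthfd2 hold 1, 2 and 3 boxes, that of Mthfd1 holds 1, and that of Shmt2 holds 0. As given next, Shmt2 rose and fell with Phgdh, Psat1 and Mthfd2, while Mthfd1 had the narrowest range of the 9.

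Transcript levels per length were compared as RPKM in mono-culture (reads scaled to gene length and library total). Psat1 at 167 ± 18.5 RPKM and Shmt2 at 166 ± 22.8 RPKM were the highest (SD, n = 4), followed by Phgdh at 130.4 ± 13.2 and Aldh1l2 at 107 ± 11.7 RPKM. Shmt1, at 17.6 ± 0.937 RPKM, was the lowest. Hence the mitochondrial serine hydroxymethyltransferase exceeded the cytosolic one in fibroblasts grown alone. All levels below are TMM-scaled counts scaled to library size (CPM), which compare libraries for 1 gene and not genes with each other. Means differ between the highest and the lowest of the 9 groups by 5.23-fold for Mthfd2, 4.11-fold for Psph, 3.95-fold for Shmt2, 3.86-fold for Phgdh, 3.53-fold for Aldh1l2, 3.05-fold for Psat1, 2.38-fold for Shmt1, 2.12-fold for Mthfd1l and 1.52-fold for Mthfd1. Co-culture with clone V gave the highest mean for each of the 9. Co-culture with clone M gave the lowest for each except Mthfd1, which was lowest with clone N.

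**Figure D1:**
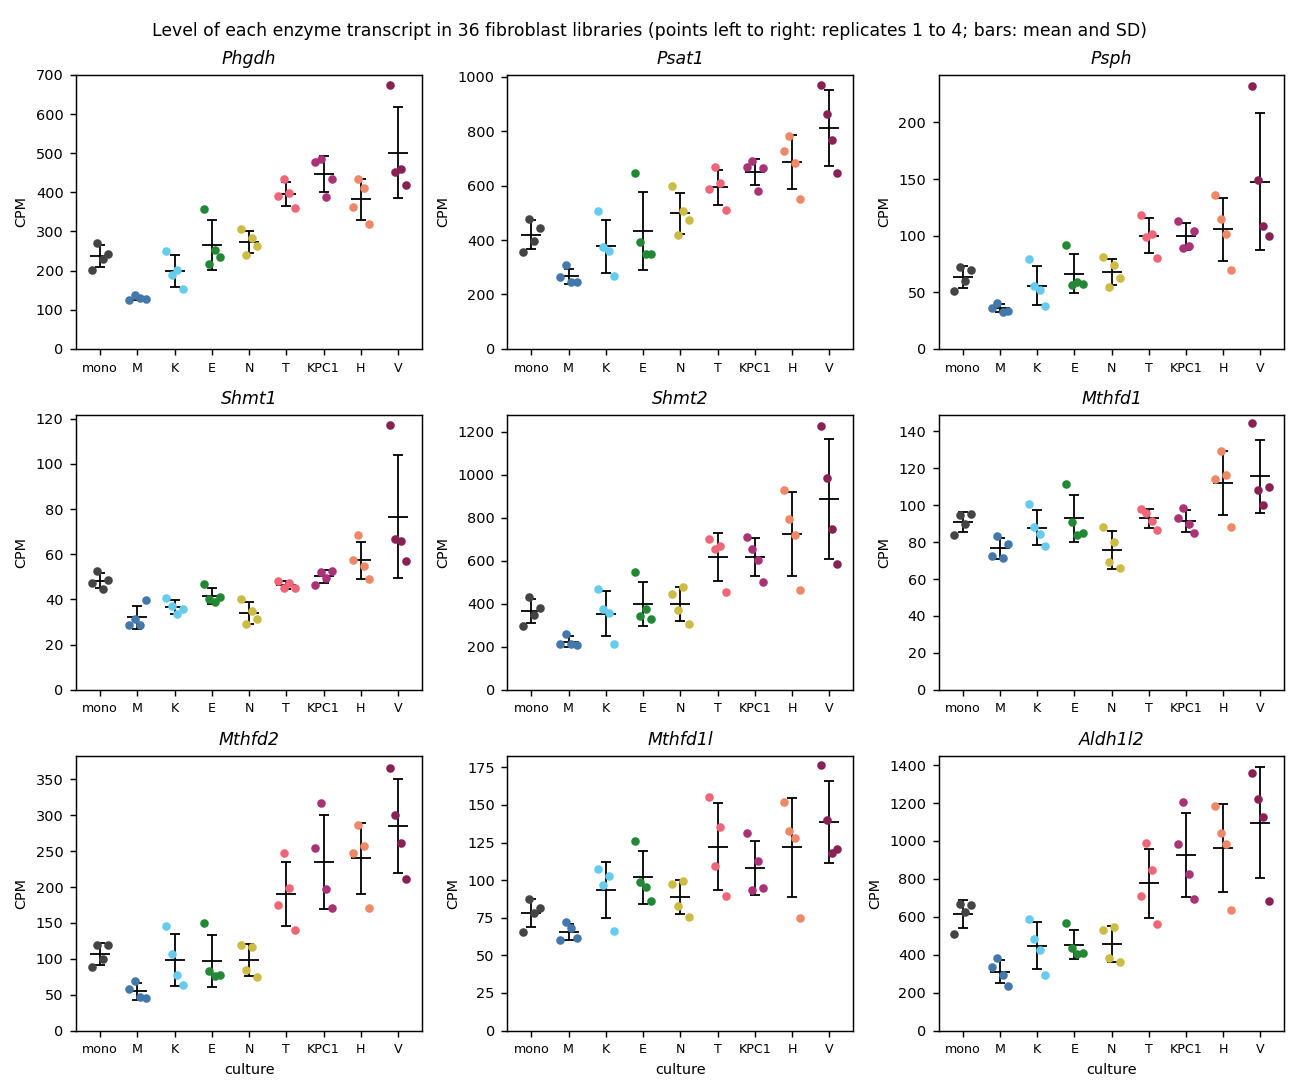
CPM of each of the 9 genes (vertical axes from 0) in the 36 libraries, by culture. Points are libraries and bars are the mean and SD of 4; clone M lies at the bottom and clone V at the top of most panels, with Phgdh at 129.9 and 501 CPM.

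Each co-culture was first compared with mono-culture, which asks whether the genes differed after culture with that tumor line. Effects of the tumor cells cannot be told apart from any handling that differed between co-culture and mono-culture. The 9 genes moved up with some lines and down with others. With clone V all 9 rose (edgeR quasi-likelihood test on 36 libraries, Benjamini-Hochberg adjusted p under 0.05 over all genes), where 29.4% of all genes rose and 58.3% were called in either direction. Beside clone H 8 rose (27.8% of all genes rose and 54.2% were called), beside KPC1 7 rose (30.5% and 59.0%) and beside clone T 6 rose (25% and 49.8%). With clone M 7 fell, where 10.8% of all genes fell and 23% were called. With clone N 1 fell, Shmt1 (19.2% and 39.0%), and with clones E and K none of the 9 was called, where 32% and 19.1% of all genes were called in either direction. For clone E 1 gene (Mthfd1l) had an unadjusted p under 0.05 and DESeq2 called 0, and for clone K 2 genes (Shmt1 and Aldh1l2) did and DESeq2 called 1 (Shmt1). Fitted on only the 8 libraries of each comparison, 2 genes were called with clone E (Mthfd1l higher and Aldh1l2 lower), 1 with clone K (Shmt1, lower) and 3 with clone N (Shmt1, Mthfd1 and Aldh1l2, all lower). Those fits called 5498 of 13332 genes tested with clone E, 3820 of 13386 with clone K and 6032 of 13463 with clone N. No difference of the 9 from all genes is read from these counts.

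The 4 libraries of a co-culture lay above all 4 mono-culture libraries for 9 of the 9 genes with clone V (25.8% of all genes did), 7 with KPC1 (27.4%), 6 with clone T (24%) and 4 with clone H (26.1%). They lay below for 8 genes with clone M (16.9%), and for Shmt1 alone with clone N (20.4%) and clone K (14.6%).

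The median log2 fold change of the 9 genes was -0.70 for clone M, -0.15 for clone K, 0.05 for clone E, 0.10 for clone N, 0.63 for KPC1, 0.65 for clone T, 0.69 for clone H and 0.95 for clone V. Over all genes tested the median lay between -0.01 and 0.01 in each of these comparisons. The 8 comparisons share the 4 mono-culture libraries. Without mono-culture replicate 1, the lowest of the 4 for 8 of the 9 genes, 4 genes were called with KPC1 and 4 with clone T.

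**Figure D2:**
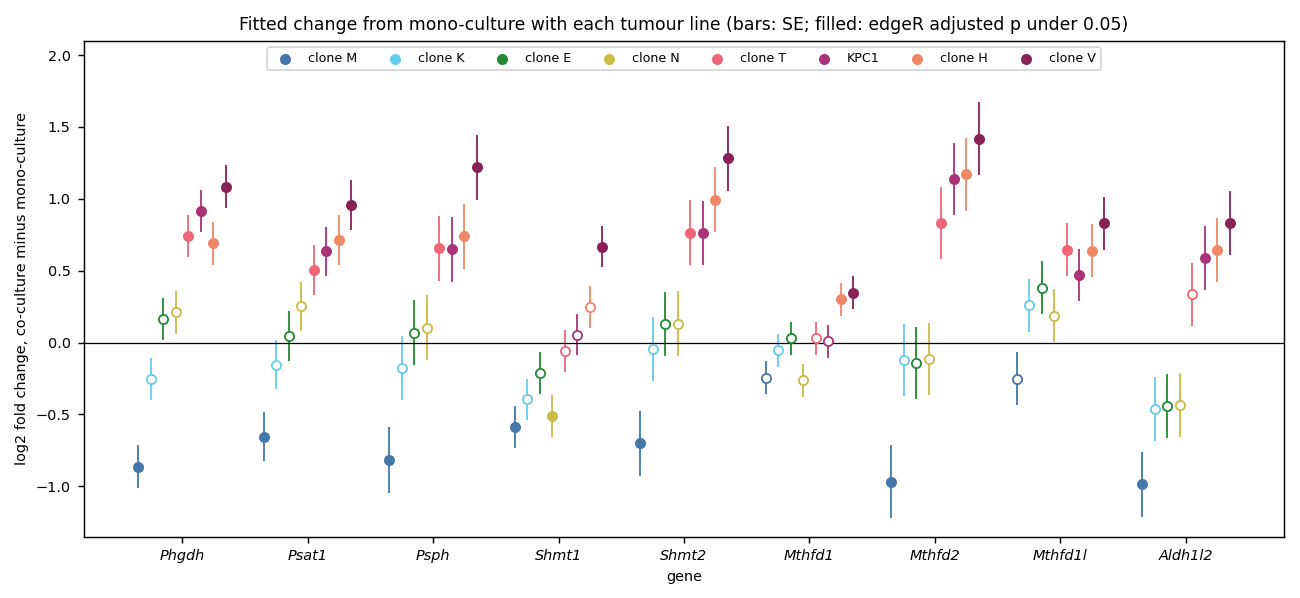
Fitted log2 fold change of each gene, co-culture minus mono-culture, for 8 tumor lines; bars are SE and filled points had an edgeR adjusted p under 0.05. Clone V lies highest for each gene, at 1.42 for Mthfd2, and clone M lies below 0 throughout, at -0.99 for Aldh1l2.

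Phgdh (ENSMUSG00000053398, chromosome 3, 98313170 to 98339990, minus strand) encodes phosphoglycerate dehydrogenase, which catalyzes the first committed step of serine synthesis. Its level was 203, 271, 229.7 and 243 CPM in the 4 mono-culture libraries, 673, 452, 460.4 and 420.0 CPM beside clone V, and 126, 137, 129 and 127 CPM with clone M. Every clone V library was above, and every clone M library below, each mono-culture library. Phgdh was 2.12-fold higher with clone V (log2 fold change 1.08, SE 0.15, edgeR adjusted p = 3.4e-07), and its log2 fold change with clone M was -0.87 (SE 0.15, adjusted p = 6.2e-05). It also rose with KPC1 (446 ± 45.8 CPM, log2 fold change 0.92), clone T (396 ± 30.8 CPM, 0.74) and clone H (382 ± 51.4 CPM, 0.69), in 4 of 4 libraries each. With clone E (265 ± 63.3 CPM), clone N (274 ± 28.4 CPM) and clone K (198 ± 40.7 CPM) the libraries overlapped mono-culture. The order of the means was V, KPC1, T, H, N, E, mono-culture, K and M, and among neighbors H differed from N (adjusted p = 0.0131) and K from M (adjusted p = 0.0206), the other 6 steps lying within the spread.

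Phgdh has near-identical processed copies in the mouse genome, and reads could be divided between them by the authors' counting. At 90% identity or more over 150 bases or more, 23 other transcripts matched Phgdh, of which 20 are processed pseudogenes, and 8 of these genes were in the table. One of them, ENSMUSG00000082280, at 96.2% identity over 1596 bases, had 6.64 to 34.9 CPM, and the other 7 stayed below 1 CPM. The 8 together held 4.31 to 6.18% of the summed CPM of Phgdh and its copies in each library. With the copies added, the means were 249.8 CPM in mono-culture, 529 CPM beside clone V and 137 CPM with clone M.

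Psat1 (ENSMUSG00000024640, chromosome 19, 15904678 to 15947337, minus strand) encodes phosphoserine aminotransferase, the second enzyme of the route. It measured 357, 478, 397 and 443 CPM in mono-culture, 971, 863, 766 and 646 CPM beside clone V, and 263, 308, 247 and 247 CPM with clone M. The groups did not overlap in either direction. The log2 fold change was 0.95 with clone V (SE 0.17, adjusted p = 2.2e-05) and -0.65 with clone M (SE 0.17, adjusted p = 0.0055). Clone H (686 ± 98.7 CPM), KPC1 (650.2 ± 48.9 CPM) and clone T (594 ± 65.0 CPM) were also above mono-culture in 4 of 4 libraries. The clone T call was lost without mono-culture replicate 1 (adjusted p = 0.0644) and without clone T replicate 2 (adjusted p = 0.0504).

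Psph (ENSMUSG00000029446, chromosome 5, 129765558 to 129787449, minus strand) encodes phosphoserine phosphatase, which releases free serine. Mono-culture libraries had 51.0, 72.0, 60.2 and 69.99 CPM and clone M libraries 36.2, 40.9, 32.8 and 33.8 CPM. Clone V libraries spread widely, at 232, 149, 109 and 100.05 CPM, all above mono-culture. The gene rose 2.33-fold with clone V (log2 fold change 1.22, SE 0.23, adjusted p = 3.3e-05) and its log2 fold change with clone M was -0.82 (SE 0.23, adjusted p = 0.0089). Clone H (106 ± 27.7 CPM), clone T (99.8 ± 15.4 CPM) and KPC1 (99.3 ± 11.5 CPM) were higher as well, although clone H replicate 4, at 70.1 CPM, lay among the mono-culture libraries. The clone T call was lost without mono-culture replicate 1 or clone T replicate 1 (adjusted p = 0.0630 and 0.0564), and the KPC1 call without mono-culture replicate 1 (adjusted p = 0.0580). An exon of Psph overlaps one of Cct6a on the opposite strand, and whether the counting used strand is not given in the sources used here. Thus the 3 enzymes that make serine rose together with clones V, H and T and KPC1 and fell together with clone M.

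At the step that splits serine, the 2 compartments differed. Shmt2 (ENSMUSG00000025403, chromosome 10, 127517123 to 127522444, minus strand), the mitochondrial enzyme, measured 298, 432, 348 and 381 CPM in mono-culture, 1225, 985, 750.0 and 585 CPM beside clone V, and 214, 259.8, 215 and 209 CPM with clone M. The clone V libraries were all higher and the clone M libraries all lower than mono-culture. The log2 fold change was 1.28 with clone V (SE 0.23, adjusted p = 1.7e-05), 0.99 with clone H, 0.76 with clone T, 0.76 with KPC1 and -0.70 with clone M (SE 0.23, adjusted p = 0.0225). The clone M call was lost without clone M replicate 1, 3 or 4 or mono-culture replicate 2 (adjusted p 0.0540 to 0.0806). Among neighbors in the order of means, KPC1 (618 ± 88.8 CPM) differed from clone N (399.6 ± 78.1 CPM, adjusted p = 0.0281).

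Shmt1 (ENSMUSG00000020534, chromosome 11, 60788104 to 60811718, minus strand), the cytosolic enzyme, measured 47.3, 52.7, 44.8 and 48.5 CPM in mono-culture and, beside clone V, 117, 66.6, 65.8 and 57.2 CPM. It was 28.8, 31.3, 28.9 and 39.7 CPM with clone M and 40.3, 29.3, 34.7 and 31.5 CPM with clone N. The clone V libraries lay above mono-culture, and the clone M and clone N libraries lay below it. The log2 fold change was 0.67 with clone V (SE 0.14, adjusted p = 2.1e-04), -0.59 with clone M (SE 0.15, adjusted p = 0.0033) and -0.51 with clone N (SE 0.15, adjusted p = 0.0060). With clone T (46.4 ± 1.59 CPM) and KPC1 (50.2 ± 2.99 CPM), where Shmt2 rose, the Shmt1 log2 fold change was -0.06 and 0.06. With clone K all 4 libraries (36.7 ± 2.99 CPM) were below mono-culture, and the adjusted p was 0.0530. Exons of Shmt1 overlap Smcr8, and exons of Shmt2 overlap Ndufa4l2, each on the opposite strand.

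The ratio of Shmt2 to Shmt1, from RPKM values and free of library scaling, was computed because of these values and so was chosen after they were seen. Its geometric mean was 9.36 in mono-culture (7.87, 10.2, 9.71 and 9.82 in the 4 libraries). It was 16.4 with clone T, 15.4 with clone H, 15.3 with KPC1, 14.6 with clone N and 14.5 with clone V, and in each of these 5 groups 4 of 4 libraries lay above every mono-culture library. Each of the 5 had an exact two-sided permutation p = 0.0286, the smallest that 70 arrangements of 4 against 4 allow, and adjusted p = 0.0457 over the 16 ratio tests made. With clone E the ratio was 11.7 (exact permutation p = 0.0571), with clone K 11.6 (p = 0.286) and with clone M 8.75 (p = 0.600). In these libraries the ratio lay above mono-culture with 5 of the 8 lines, among them clone N, where Shmt2 itself was not called (log2 fold change 0.13, edgeR adjusted p = 0.682). Because the ratio was chosen after the values were seen, its p-values describe these values and do not test a question set beforehand. Single genes were called against mono-culture at shares of 39.0% (clone N) to 59.0% (KPC1) with these 5 lines. Ratios of other gene pairs were not computed, so how common such a separation is cannot be said.

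Mthfd2 (ENSMUSG00000005667, chromosome 6, 83305691 to 83325908, minus strand) encodes the mitochondrial methylenetetrahydrofolate dehydrogenase and cyclohydrolase, which oxidizes the one-carbon unit made by SHMT2. It measured 89.0, 119, 99.1 and 119.9 CPM in mono-culture, 366, 301, 261 and 212 CPM beside clone V, and 57.4, 69.3, 46.7 and 44.7 CPM with clone M. No library of either co-culture overlapped mono-culture. Mthfd2 had the highest fold change of the 9 genes with clone V, at 2.67-fold (log2 fold change 1.42, SE 0.25, adjusted p = 2.2e-05), and was 2.25-fold higher with clone H, 2.20-fold with KPC1 and 1.78-fold with clone T. With clone M its log2 fold change was -0.97 (SE 0.26, adjusted p = 0.0056). In the order of means, clone T (190.2 ± 44.9 CPM) differed from its neighbor mono-culture (107 ± 15.2 CPM), and clone E (96.8 ± 35.7 CPM) differed from clone M (54.5 ± 11.3 CPM, adjusted p = 0.0321).

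Mthfd1l (ENSMUSG00000040675, chromosome 10, 3973118 to 4167081, plus strand) encodes the mitochondrial formyltetrahydrofolate synthetase, which releases formate for export to the cytosol. Its libraries had 65.3, 87.7, 77.8 and 81.5 CPM in mono-culture and, beside clone V, 177, 140.0, 118 and 120.4 CPM. It rose with clone V (log2 fold change 0.83, SE 0.18, adjusted p = 2.9e-04), clone T (0.65, adjusted p = 0.0042), clone H (0.64, adjusted p = 0.0041) and KPC1 (0.47, adjusted p = 0.0283). Unlike the genes above, it was not called with clone M, where the libraries had 60.5, 72.1, 68.1 and 61.5 CPM and the log2 fold change was -0.25 (adjusted p = 0.353). The KPC1 call was lost without KPC1 replicate 1 or 3 or mono-culture replicate 1 or 3 (adjusted p up to 0.130), and without scaling beyond library size (0.0545).

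Aldh1l2 (ENSMUSG00000020256, chromosome 10, 83487450 to 83534140, minus strand) encodes the mitochondrial 10-formyltetrahydrofolate dehydrogenase, which makes NADPH and carbon dioxide from the one-carbon unit. It measured 510.4, 670.0, 623 and 661 CPM in mono-culture, 1358, 1222, 1125 and 682 CPM beside clone V, and 334, 382, 291 and 236 CPM with clone M. The groups were again apart, clone V above and clone M below. With clone M it fell to 0.504-fold (log2 fold change -0.99, SE 0.23, adjusted p = 0.0015), the lowest fold change of any of the 9 genes in the 8 comparisons, and it rose with clone V (0.83, SE 0.22, adjusted p = 0.0020), clone H (0.64, adjusted p = 0.0156) and KPC1 (0.59, adjusted p = 0.0235). With clone T its log2 fold change was 0.33 (adjusted p = 0.216). With clones E, K and N the means were 453, 448 and 456 CPM against 616 CPM in mono-culture, with log2 fold changes of -0.44, -0.46 and -0.43 that did not pass the test (adjusted p between 0.123 and 0.154). Fitted on only the 8 libraries compared, Aldh1l2 was called lower with clone E (adjusted p = 0.0134) and clone N (adjusted p = 0.0311). Exons of Aldh1l2 overlap D10Wsu102e on the opposite strand. The clone H call was lost without clone H replicate 1 or mono-culture replicate 1 (adjusted p up to 0.0646), and the KPC1 call without KPC1 replicate 1 or 2 or mono-culture replicate 1 (adjusted p up to 0.113).

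Mthfd1 (ENSMUSG00000021048, chromosome 12, 76255298 to 76319803, plus strand) encodes the trifunctional cytosolic enzyme that takes formate back into the folate pool. It varied least, with 83.9, 95.0, 89.9 and 95.3 CPM in mono-culture, 145, 108, 99.9 and 109.7 CPM beside clone V and 114, 129, 116 and 88.5 CPM with clone H. It rose with clone V (log2 fold change 0.35, SE 0.11, adjusted p = 0.0103) and clone H (0.30, SE 0.11, adjusted p = 0.0269). Without clone V replicate 1, at 145 CPM, the first had an adjusted p of 0.0969, the second was lost without any one of clone H replicates 1, 2 and 3 and mono-culture replicates 1 and 3 (adjusted p up to 0.125), and both were lost without scaling beyond library size (0.0517 and 0.117). With the other 6 lines the log2 fold change lay between -0.26 and 0.03 and none was called. Exons of Mthfd1 overlap Gm47525 on the opposite strand.

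The ratio of Mthfd1l to Mthfd1, likewise chosen after the values were seen, had a geometric mean of 0.751 in mono-culture. It was 1.13 with clone T, 1.05 with clone V, 1.03 with clone N, 1.03 with KPC1 and 0.960 with clone E, in each case with 4 of 4 libraries above mono-culture (exact permutation p = 0.0286 each, adjusted p = 0.0457). With clone H (0.932) and clone K (0.924) 3 of 4 libraries were above (exact permutation p = 0.114 each), and with clone M the ratio was 0.750. The ratio sets the transcript of the formate-releasing mitochondrial enzyme against that of the cytosolic one, and no flux was measured. Here too, how often ratios of other gene pairs separate in this way was not computed.

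**Figure D3:**
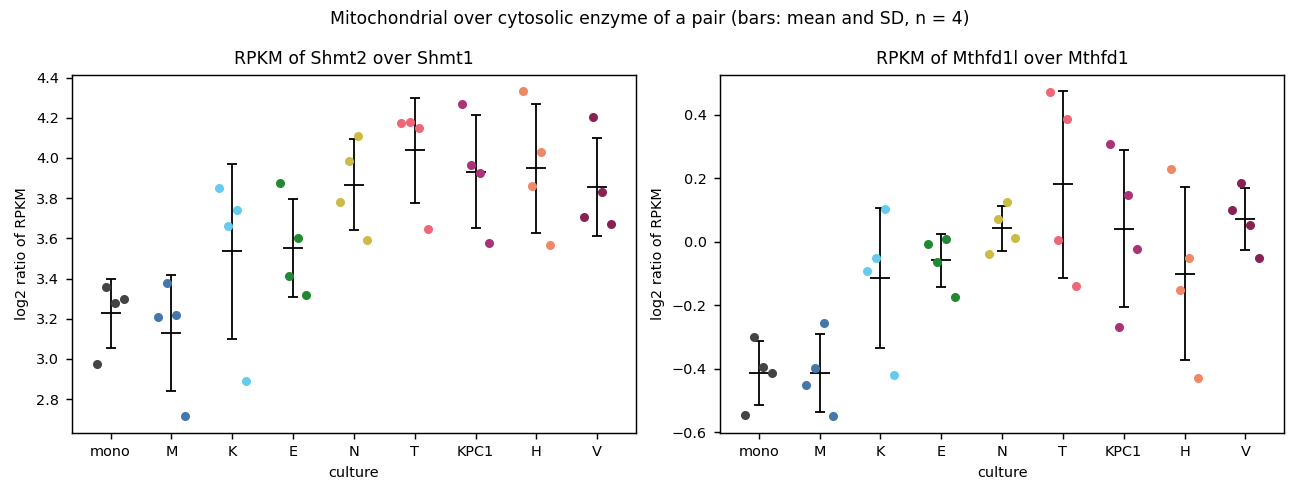
Log2 ratio of RPKM of the mitochondrial over the cytosolic enzyme in each library (points), with mean and SD of 4, for Shmt2 over Shmt1 (left) and Mthfd1l over Mthfd1 (right). Mono-culture and clone M sit lowest in both, at geometric means of 9.36 and 8.75 for the first ratio and 0.751 and 0.750 for the second.

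The next comparison asked whether the change depended on which clone the fibroblasts met. It did for each of the 9 genes: all 9 differed among the 7 clonal co-cultures in 1 F-test on 6 contrasts, where 67.5% of all genes did. The adjusted p ran from 6.3e-11 for Phgdh to 1.5e-04 for Mthfd1l, and all 9 stayed called in every fit that left out 1 library. Averaged over the 7 clones, on the other hand, only Mthfd1l was called against mono-culture (log2 fold change 0.38, SE 0.14, adjusted p = 0.0263), where 24.3% of all genes rose and 49.2% were called. That call was lost without mono-culture replicate 1, 3 or 4 (adjusted p up to 0.145). The averages of Shmt2, Mthfd2, Psph, Phgdh and Psat1 were 0.36, 0.30, 0.26, 0.25 and 0.24 on the log2 scale and did not pass. The opposite changes with clones V and M both enter these averages.

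Pairs of co-cultures were then compared, 28 in all, with p-values adjusted over all genes within a pair. Of 252 tests of the 9 genes 131 were called, against 27.5% of all gene-by-pair tests. Phgdh differed in 20 of the 28 pairs, Mthfd2 in 18, Shmt2 and Aldh1l2 in 16 each, Psat1, Psph and Shmt1 in 15 each, and Mthfd1 and Mthfd1l in 8 each. All 9 genes differed between clone V and each of clones E (42.2% of all genes), K (54.8%), M (57.9%) and N (43.5%), and between clones H and M (51.1%). Clone H differed from clone K in 8 (49.8%), from clone N in 8 (32.3%) and from clone E in 7 (31.6%). KPC1 differed from clone M in 8 (55.5%), from clone K in 7 (56.1%), from clone E in 6 (40.2%) and from clone N in 5 (35.3%). Clone T differed from clone M in 8 (40.5%), from clone K in 6 (41.4%), from clone N in 4 (8.53%) and from clone E in 3 (10.6%). Clone M, the lowest, differed from clone E in 6 (11.5%) and from clone N in 5 (19.2%).

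Few differences were called among clones V, H and T and KPC1, and few among clones E, K and N or between K and M. Clone M differed from clones E and N in more genes, as given above. Clones K and M differed in Phgdh alone (log2 difference 0.61, adjusted p = 0.0206, 2.24% of all genes), clones K and N also in Phgdh alone (21.7%), and clone V and KPC1 in Shmt1 alone (0.61, adjusted p = 0.0069, 10.7%). Clones T and V differed in Shmt1 and Mthfd1, both higher with clone V (24%). None of the 9 genes was called between clones E and K (11.5%), E and N (1.27%), H and T (7.58%), H and V (0.388%), H and KPC1 (2.89%) or T and KPC1 (5.35%). At an unadjusted p under 0.05, edgeR had 1 gene for E and K, 1 for E and N, 2 for H and T, 3 for H and V, 1 for H and KPC1 and 0 for T and KPC1, and DESeq2 called 1, 0, 0, 0, 0 and 0. Thus in these pairs a difference was not detectable with 4 libraries a group, which does not show that the levels were equal. Of 72 steps between neighbors in the orders of the 9 genes, 5 were called.

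**Figure D4:**
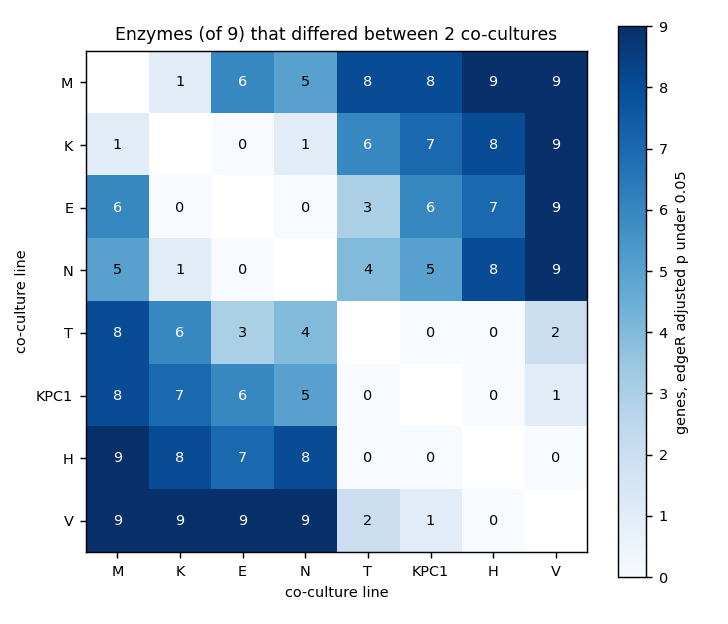
Number of the 9 genes called (edgeR adjusted p under 0.05) between each pair of co-cultures, with lines ordered by the summed level of the 9 genes from clone M to clone V. Counts are 0 or 1 near the diagonal for most neighbors and reach 9 between clone V and each of clones M, K, E and N.

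KPC1 was finally set against the mean of the 7 clones. Phgdh (log2 difference 0.66, SE 0.11, adjusted p = 1.6e-05), Mthfd2 (0.84, adjusted p = 3.6e-04), Aldh1l2 (0.66, adjusted p = 0.0013) and Psat1 (0.40, adjusted p = 0.0117) were higher with KPC1, 4 of the 9, where 22.3% of all genes were higher and 41.1% were called. Shmt2 (0.40, adjusted p = 0.0511) and Psph (0.39, adjusted p = 0.0536) did not pass. The Psat1 call was lost without KPC1 replicate 1 (adjusted p = 0.0503). Without clone V replicate 1, 7 of the 9 genes were called. The mean of the clones includes clone M, and none of the 9 was called higher with KPC1 than with clone V, H or T. The fitted level exceeded that of KPC1 for 9 genes with clone V, 8 with clone H and 4 with clone T.

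Libraries of a group differed from each other across the pathway at once. Replicate 1 was the highest of the 4 for all 9 genes with clones E, K and V, and replicate 4 was the lowest for all 9 with clone H, for 8 with clones K and T and for 7 with clone V. The 9 genes summed to 5265 CPM in clone V replicate 1 and 2932 CPM at the lowest of that group, and to 2286 and 1210 CPM at the ends of clone K. Over the 36 libraries the log2 CPM of pairs of the 9 genes had Pearson correlations of 0.685 (Shmt1 with Mthfd1l) to 0.975 (Psph with Shmt2), with a median of 0.858 over 36 pairs. These libraries share groups and scaling, so the correlations are a description.

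The genes outside the 9 with the most similar pattern were found by Pearson correlation of log2 CPM over the same 36 libraries. For Phgdh the first was the copy ENSMUSG00000082280 named above (r = 0.986), followed by Asns (0.975), which encodes asparagine synthetase, and Cth (0.970), which encodes the cysteine-forming cystathionine gamma-lyase. Psat1 was closest to Asns (0.962), the glycyl-tRNA synthetase gene Gars (0.962) and Eif4ebp1 (0.958), a translation repressor. Shmt2 was closest to Nars (0.981), which encodes asparaginyl-tRNA synthetase, Aldh18a1 (0.973), of proline synthesis, and Lonp1 (0.972), a mitochondrial protease. Mthfd2 was closest to Hspa9 (0.982), a mitochondrial chaperone, Nars (0.980) and Eif4ebp1 (0.980), and Psph to Nars (0.953), Hspa9 (0.943) and Gars (0.943). Aldh1l2 was closest to Slc1a5 (0.968), a neutral amino acid transporter, Bcat1 (0.966), a branched-chain aminotransferase, and Lonp1 (0.966). Mthfd1l followed Nup188 (0.919), Fads3 (0.917) and Xpot (0.899).

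The cytosolic folate genes Shmt1 and Mthfd1 had neighbors not named above, although 1 of them, Hars, is again a tRNA synthetase gene. Shmt1 was closest to Ranbp1 (0.947), Hells (0.942), a chromatin remodeler of dividing cells, and Rfc3 (0.925), a subunit of the replication clamp loader. Mthfd1 was closest to Hn1l (0.920), Hars (0.920), which encodes histidyl-tRNA synthetase, and Tfdp1 (0.913), a partner of E2F factors.

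Lists of related genes were read beside the 9. Among 16 integrated stress response genes, 15 rose for each of clones V and H, 13 for KPC1 and 12 for clone T, and 1 fell for each. Of all genes 29.4%, 27.8%, 30.5% and 25% rose with clones V and H, KPC1 and clone T. For clone M 0 rose and 8 fell, where 10.8% of all genes fell. For clones N, E and K 4, 3 and 1 rose and 1, 2 and 1 fell, where 39.0%, 32% and 19.1% of all genes were called. The median log2 fold change of the list was -0.64 for clone M, 0.80 for clone T, 0.98 for clone H, 1.10 for KPC1 and 1.12 for clone V. Mean Asns was 173 CPM in mono-culture, 95.1 beside clone M, 544 beside KPC1 and 558 beside clone V. Atf4 itself had 594 CPM in mono-culture and rose with clone V (972 CPM, log2 fold change 0.71), KPC1 (911 CPM, 0.62), clone H (903 CPM, 0.60) and clone T (746 CPM, 0.33) and fell with clone M (359 CPM, -0.73). Of the list's ends in the average over the clones, Vldlr (1.17), a lipoprotein receptor, and Ppp1r15a (1.09), which restores translation after stress, were highest. Atf5, a factor related to ATF4, was lowest (-1.55) and fell with all 8 lines, while Slc7a5 (0.05), a large neutral amino acid transporter, did not pass in the average.

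**Figure D5:**
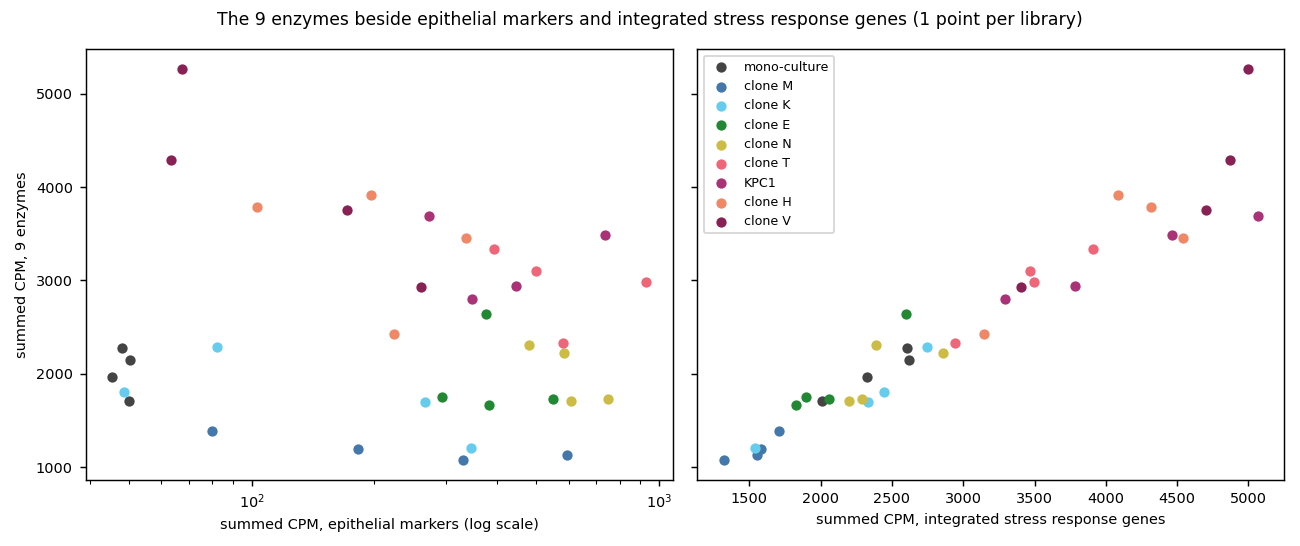
Summed CPM of the 9 genes in each library (vertical axis) against summed CPM of 12 epithelial markers (left, log scale) and of 16 integrated stress response genes (right), colored by culture. Clone V has the highest mean sum of the 9 genes beside low epithelial sums of 63.4 to 259.9 CPM. Clone T and KPC1, where 6 and 7 of the 9 rose, have epithelial sums of 393 to 929 and 272 to 739 CPM. Clone M is low on both axes of the right panel.

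Of 24 other folate and one-carbon genes listed, 22 were tested, and 8 rose and 4 fell with clone V, 9 and 4 with clone H, 9 and 3 with KPC1, and 4 and 3 with clone M, with medians of 0.21, 0.27, 0.14 and -0.07. Of all genes, 29.4% rose and 28.9% fell with clone V, 27.8% and 26.4% with clone H, 30.5% and 28.5% with KPC1, and 12.2% and 10.8% with clone M, and no difference of the list from all genes is read from these counts. Aldh1l1, the cytosolic counterpart of Aldh1l2, rose with all 8 lines, from 2.08 CPM in mono-culture to 35.4 CPM with clone T and 7.96 CPM with clone V, and its lowest co-culture mean was that of clone V, where Aldh1l2 was highest. The epithelial marker sums given below were also high for clone T and low for clone V, and within clone K Aldh1l1 ran from 2.92 to 21 CPM and the marker sum from 48.7 to 346 CPM; their part in the rise of Aldh1l1 was not tested. Cth rose with clones V, H and T and KPC1 and fell with clone M. Ggh, which trims folate polyglutamates, fell with all 8 lines (average -0.88), and Gcsh, a subunit of the glycine cleavage system, fell with 6 (-0.42).

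Of 6 tested carriers of serine and glycine, 5 rose and 1 fell with clones V and H, 4 rose and 1 fell with KPC1 and clone T, and 2 fell with clone M. The shares of all genes that rose were 29.4% with clone V, 27.8% with clone H, 30.5% with KPC1 and 25% with clone T. With clone M 10.8% of all genes fell. Slc1a4, a carrier of serine and alanine, rose from 75.7 CPM alone to 147 CPM beside clone V. Slc38a1 rose from 59.8 to 132 CPM and Slc38a2 from 537 to 787 CPM with clone V, both glutamine and small neutral amino acid carriers. Slc38a4, a related carrier, was low, at 7.28 CPM in mono-culture, and fell with 7 lines.

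Of 8 purine synthesis genes, which use the one-carbon units, 5 rose with clones V and H, 4 with KPC1, 3 with clone T, 1 with clone E and 0 with clones K, M and N. With clone K 2 fell, where 8.69% of all genes fell. All-gene shares that rose were 29.4% and 27.8% with clones V and H, 30.5% with KPC1 and 25% with clone T. With clone E 32% of all genes were called in either direction. Ppat, the first enzyme of the route, rose from 47.7 CPM in mono-culture to 83.0 CPM with clone V, and Prps1 from 45.7 to 90.3 CPM. Paics (average log2 fold change -0.10) and Impdh2 (-0.09) did not pass in the average. Among 14 proliferation genes 5 rose with clone V, 4 rose and 2 fell with clone H, 3 rose and 5 fell with KPC1, and 6 fell with each of clones K, M and N. The counts of proliferation genes that rose are near or below the shares of all genes just given, and 8.69%, 10.8% and 19.2% of all genes fell with clones K, M and N. Mki67 was 324 CPM in mono-culture, 378 beside clone M, 517 beside clone V and 643 beside clone H, and Rrm2, a ribonucleotide reductase subunit, rose in the average (0.35), whereas the replication helicase genes Mcm5 (-0.51) and Mcm6 (-0.34) fell.

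Markers of cell type were read for the sorted cells. All 12 fibroblast markers were detected in every group, with mean Col1a1 at 7264 CPM in mono-culture and from 4230.3 CPM (KPC1) to 10204 CPM (clone K) in the co-cultures. Pdgfra, a fibroblast receptor, fell in the co-cultures where most of the 9 genes rose, from 312 CPM alone to 149 beside clone T, 124 beside clone H, 107 beside KPC1 and 97.1 beside clone V, and was 322 CPM for clone M. The list as a whole was split there. Of the 12 fibroblast markers 4 rose and 5 fell with clone V, 5 and 5 with clone H, and 6 and 6 with each of clone T and KPC1. Of all genes 58.3%, 54.2%, 49.8% and 59.0% were called in either direction with clones V, H and T and KPC1. Of 12 epithelial markers 8 were tested, and the sum of the 12 was 45.5 to 50.3 CPM in mono-culture. It was 480.2 to 751 CPM for clone N, 393 to 929 for clone T, 293 to 550.0 for clone E, 272 to 739 for KPC1, 103 to 336 for clone H, 80.1 to 593 for clone M, 63.4 to 259.9 for clone V and 48.7 to 346 for clone K. Krt8 and Krt18 were near 0 in mono-culture (means 0.0228 and 0.161 CPM) and at 19.5 and 54.2 CPM with clone V, while Cdh1 was 15.03 CPM there and Epcam was at or near 0 in every group (means up to 0.176 CPM). Every clone V sum, where the 9 genes were highest, was lower than every clone N and clone E sum, where 1 and 0 of the 9 were called. Clone V sums overlapped those of clone K, where 0 of the 9 were called. They also overlapped those of clones H and M, where 8 rose and 7 fell. Since mono-culture alone had 45.5 to 50.3 CPM, the sums cannot be read as an amount of tumor RNA. The sums of clone T and KPC1, where 6 and 7 of the 9 rose, overlapped those of clones N and E. The part of these markers, and of the fall in Pdgfra, in the results was not tested. Ptprc stayed below 0.1 CPM and Pecam1 below 1 CPM as group means, and the summed immune and endothelial markers reached at most 15.4 and 6.69 CPM. In bulk RNA, fewer cells of a type and less RNA per cell cannot be told apart.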

How the data were processed

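RNA of 36 libraries was sequenced from poly(A) libraries made with a strand-specific kit from 200 ng of input RNA, amplified for 14 cycles and read in pairs of 76 bases. The authors deposited whole-number counts per gene for 39017 genes, with no scaling, and RPKM values for 37746 genes, which followed the counts and library totals (ratio 0.9997 to 1.0002 of the median over 10062 genes). The submitters' processing notes name STAR, featureCounts, edgeR and mm10, without versions; annotation and use of strand are not given in the sources used here. Groups came from the labels.

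Counts were analyzed with edgeR 4.0.16 in R 4.3.3 (filterByExpr, 14439 genes; TMM; estimateDisp; robust glmQLFit; glmQLFTest) over all 36 libraries with 1 coefficient per group, with p-values adjusted by Benjamini-Hochberg and 0.05 as the threshold; SE was derived from the fold change and F. log2 CPM used a prior count of 1. Ratios were tested by exact permutation (scipy 1.17.1), and copies were found with blastn 2.17.0. Alternatives were RLE scaling, library size only, no filter, DESeq2 1.42.0, a threshold of 0.1, the replicate block, only the 8 libraries compared, and leaving out each library. The procedure was tested on simulated data. Libraries of a group differed by at least 5.48 in chi-square per degree of freedom, so none was a duplicate.

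The 9 genes and the lists were chosen with earlier results of these data known. Named were the 9 genes; of each list of related genes the 2 highest and 2 lowest fold changes in the average over clones; Atf4, Asns and Mki67; 8 markers (Krt8, Krt18, Epcam, Cdh1, Col1a1, Pdgfra, Ptprc and Pecam1); and for each of the 9 the 3 genes with the highest correlation. The study given as the source describes the tumor clones and not these fibroblasts, and its classes of clones were not used.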

Additional observations from a re-analysis of the deposited data

Results flagged for a closer look

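The change with co-culture differed among the 7 clones for each of the 9 genes (edgeR F-test, adjusted p): Phgdh 6.35e-11, Mthfd2 1.02e-08, Shmt1 1.78e-08, Psat1 3.16e-08, Aldh1l2 5.59e-08, Shmt2 7.44e-08, Psph 1.17e-07, Mthfd1 4.08e-05 and Mthfd1l 1.46e-04. Among all genes tested, 67.5% differed among the 7 clones. For Phgdh, Psat1, Psph, Shmt1, Shmt2, Mthfd1, Mthfd2 and Aldh1l2, all clone V libraries lay above the 4 mono-culture libraries. All clone M libraries lay below them. The shares of all genes that did so were 25.8% with clone V and 16.9% with clone M. Mthfd1 was not called with clone M (edgeR adjusted p = 0.124). Its clone V call was lost without clone V replicate 1 (0.0969) and without scaling beyond library size (0.0517).

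In 4 of 81 sets of 4 libraries, 1 library stood far from the other 3 on the log2 scale by Dixon's criterion, and chance gives about 1 in 20 such sets. Clone E replicate 1 was high for Psph (91.9 CPM, the next library 59.5) and Mthfd2 (150.2 CPM, the next 83.1). Clone M replicate 2 was high for Shmt2 (259.8 CPM, the next 215). Clone T replicate 4 was low for Shmt2 (454 CPM, the next 654).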

How the results depend on the processing

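Most calls held. Of the tests of single genes in 11 comparisons, 629 alternatives other than leaving out a library kept direction and side of the threshold, 25 gained a call and 3 lost one, all 3 without scaling beyond library size (Mthfd1 with clones V and H, Mthfd1l with KPC1). With 1 library left out, 3481 kept both, 30 gained and 28 lost a call. No called value changed sign. The labels state no shared origin for libraries of the same number, but the serial numbers in the sample titles follow it. They run through the 8 co-cultures replicate by replicate, with the mono-culture libraries last. Whether such a round was a batch is not stated, and a difference from mono-culture cannot be told apart from its separate place. The criterion for treating the numbers as paired (a correlation above 0.1 at every number) was met in 3 of 36 pairs of groups. It was met in none with mono-culture, and the mean correlation was 0.107. Yet 24 of 36 libraries were closest to their own number, a hint from the data that libraries of the same number share something. The main fit does not include the number. With the replicate block 10 single tests gained a call and none lost one: the counts of the 9 genes called rose to 2 for each of clones E and K, and to 3 for clone N and the mean of the clones, and the calls over pairs went from 131 to 166. Calls over all 14439 genes rose as well, from 4622 to 5349 with clone E and from 2763 to 3543 with clone K. They rose from 5625 to 6390 with clone N and from 7108 to 7685 for the mean of the clones. Gained were Aldh1l2, lower with clones E (adjusted p = 0.0181), K (0.0147) and N (0.0165), Mthfd1l with clone E, Shmt1 with clone K, Mthfd1 with clone N, Phgdh and Shmt2 in the mean of the clones, and Shmt2 (0.0047) and Psph (0.0088) for KPC1 against the clones. Fitting only the 8 libraries compared gave 3 for clone N, 2 for clone E and 1 for clone K. Of the genes tested, those fits called 6032 of 13463, 5498 of 13332 and 3820 of 13386. Clone K had 1 (Shmt1) without scaling, with DESeq2 and at a threshold of 0.1, where clone N had 2 and the mean of the clones 3; without scaling clone N also had 2. Leaving out 1 library gave 0 to 1 with clone K (1 without clone H replicate 4, clone M replicate 4, clone N replicate 1, or clone V replicate 1 or 4) and 1 to 2 with clone N (2 without clone H replicate 4, clone N replicate 1, mono-culture replicate 1, or clone V replicate 1 or 3). It gave 4 to 7 with KPC1 (4 without mono-culture replicate 1), 0 to 3 for the mean of the clones (0 without mono-culture replicate 1, 3 or 4; 2 without clone E replicate 2 or mono-culture replicate 2; 3 without clone K replicate 4) and 3 to 7 for KPC1 against the clones (7 without clone V replicate 1). The cause of these changes was not tested.

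Signs turned only for uncalled values near 0. Without scaling, the log2 fold change against mono-culture was -0.0078 for Psat1 and -0.024 for Mthfd1 with clone E, -0.045 for Mthfd1 with clone T, -0.035 for Shmt1 and -0.084 for Mthfd1 with KPC1, and -0.044 for Mthfd1 in the mean of the clones; Mthfd1 with KPC1 was -0.0018 under RLE scaling, -0.0019 with DESeq2 and -0.0044 with the 8 libraries. With 1 library left out the ranges with clone E were -0.0082 to 0.26 for Phgdh, -0.21 to 0.15 for Psat1, -0.13 to 0.15 for Psph, -0.058 to 0.23 for Shmt2 and -0.066 to 0.085 for Mthfd1. They were -0.21 to 0.13 for Shmt2 and -0.38 to 0.039 for Mthfd2 with clone K, -0.010 to 0.20 for Psph and -0.24 to 0.0026 for Mthfd2 with clone N, -0.012 to 0.063 for Mthfd1 with clone T, and -0.037 to 0.049 for Mthfd1 with KPC1. In the mean of the clones Mthfd1 ran from -0.027 to 0.044, and for KPC1 against the clones Mthfd1 from -0.040 to 0.026 and Mthfd1l from -0.025 to 0.16. The lowest count of any of the 9 genes in a library was 453, and the number of libraries a group, 4, limits the precision.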
